A study of Caenorhabditis elegans with 6 samples.

Results

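The lbp genes of the nematode Caenorhabditis elegans encode a small family of lipid-binding proteins, lbp-1 to lbp-9. Membership rests on the gene name alone, with no threshold on a measured value. All 9 were found among the 16391 rows of the expression table, and all 9 were among the 12996 genes whose mean reached 1 FPKM and which were tested. FPKM relates the fragments of a gene to the length of its transcript and to all fragments mapped in the library, so levels of different genes could be set side by side per length. The libraries were made from whole L4 larvae of N2, the wild type of the laboratory, fed OP50 bacteria. There were 3 libraries of worms grown at 15°C and 3 of worms grown at 25°C. Both groups were of one genotype and carried no transgene, and the comparison asks how warm cultivation affects gene expression. No source used here says that the replicates were separate cultures, so the p-values measure only the spread between these libraries, which may be technical. In whole worms, fewer cells of a type and less RNA per cell cannot be told apart.

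Proteins of this family are relatives of the vertebrate fatty acid-binding proteins. Each folds into a small barrel that holds a fatty acid or a related lipid in its cavity and carries it through watery surroundings. LBP-1, LBP-2 and LBP-3 carry signal sequences and are predicted to be secreted, while the others are thought to act inside cells. LBP-8 is known as a lysosomal lipid chaperone of the intestine. It takes a lipid that the lysosomal lipase LIPL-4 releases and brings it to the nucleus, where the nuclear receptors NHR-49 and NHR-80 respond to it. LBP-3 is known to leave the intestine and to signal to neurons in a pathway with the neuropeptide gene nlp-11, and LBP-5 has been tied to fat storage.

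The depth of the libraries is unknown, since FPKM hold no read counts. Each library had 15007 to 15255 genes above 0. The summed FPKM of a library lay between 2865856 and 3313082 at 15°C and between 2663992 and 2776526 at 25°C, so the sums did not overlap, while median-ratio size factors lay between 0.9941 and 1.024. Markers of intestine, body wall muscle, hypodermis, neurons and germline were present in whole worms as labelled, and no listed marker that was found was at 0 in all libraries. The markers opt-2, unc-54 and vit-3 were not found under these names. The yolk genes differed between the groups, and their values are given with the other markers.

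The genes lie in 3 clusters and 2 single sites of the WBcel235 genome, by the Ensembl annotation. On chromosome X, lbp-3 (WBGene00002255, bases 3257372 to 3258155), lbp-1 (WBGene00002253, 3259142 to 3259812) and lbp-2 (WBGene00002254, 3260610 to 3261470) follow each other on the plus strand within 4099 bases. These are the 3 members with signal sequences. On chromosome I, lbp-6 (WBGene00002258, 6728296 to 6729376) and lbp-5 (WBGene00002257, 6731267 to 6732276) lie on the minus strand, 1890 bases apart, with ant-1.2 between them. On chromosome V, lbp-7 (WBGene00002259, 13879552 to 13880213) and lbp-8 (WBGene00002260, 13890773 to 13891364) lie on the plus strand, 10559 bases apart, with T22G5.3, srsx-19 and spp-12 between them. Also on the plus strand of chromosome V are lbp-4 (WBGene00002256, 7820578 to 7821477) and lbp-9 (WBGene00021486, 2068449 to 2069142). All 9 genes are short, with exonic lengths between 481 and 759 bases. Exons of lbp-6 share 35 bases with mec-6 and those of lbp-9 share 5 bases with Y40B10A.9, each on the opposite strand. Neither partner exceeded a mean of 9.81 FPKM at either temperature, against means of 1751 to 2923 FPKM for the 2 lbp genes.

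At 15°C, 3 members far exceeded the others. The mean level was 3619 FPKM ± 613.6 (SD, n = 3) for lbp-2, 2817 ± 432.5 for lbp-6 and 2586 ± 276.6 for lbp-9. Over all 6 libraries these genes ranked 134, 152 and 191 among the 16391 rows, which places lbp-2 in the top 0.818%. A middle group followed, with means of 359.3 FPKM ± 67.4 for lbp-7, 316.5 ± 59.1 for lbp-5, 237.5 ± 33.4 for lbp-3, 198.5 ± 21.0 for lbp-1 and 185.5 ± 28.0 for lbp-4. The lowest member was lbp-8, with 8.33 FPKM ± 2.02. Within the top group and within the middle group the library ranges of neighbours in this order overlapped. Ranges were apart only between lbp-9 and lbp-7 and between lbp-4 and lbp-8. At 25°C the order of the means was the same, and only the ranges of lbp-2 and lbp-6 overlapped. Within single libraries the order was steadier than these ranges. At 15°C each member was above the next in 3 of 3 libraries, except that lbp-6 was above lbp-9 and lbp-1 above lbp-4 in 2 of 3, and at 25°C each was above the next in 3 of 3.

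**Figure D1:**
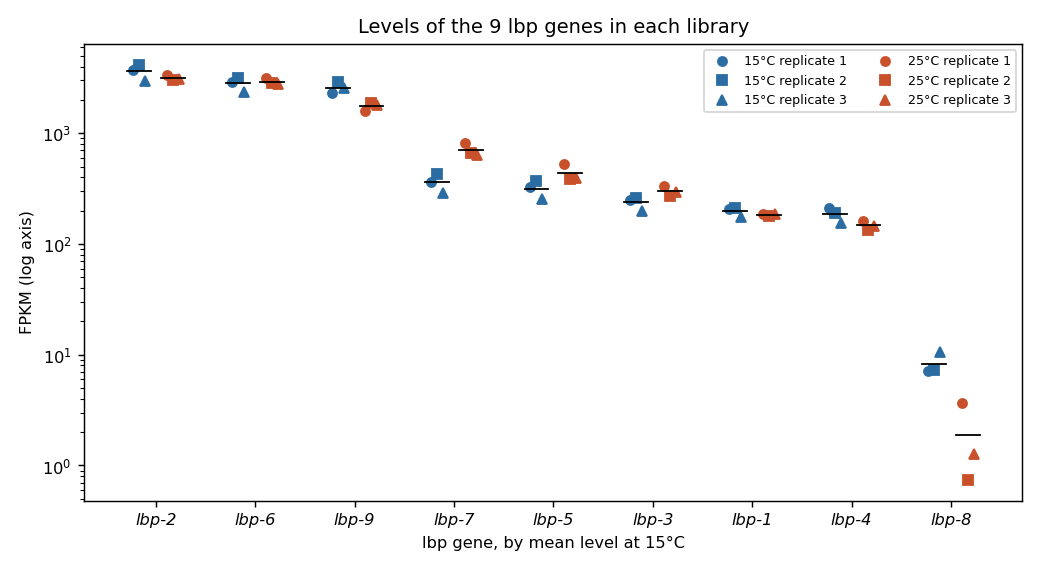
FPKM of each lbp gene (log axis) in the 3 libraries at 15°C (blue) and the 3 at 25°C (orange), with marker shape for the replicate number and a black line for the group mean. lbp-2, lbp-6 and lbp-9 lie at 1598 FPKM or more in all 6 libraries, and lbp-8 lies at 0.739 to 10.7 FPKM.

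Between the temperatures the family did not move as a block. The libraries of the groups did not overlap for 5 members. Of these, lbp-3, lbp-5 and lbp-7 were higher at 25°C and lbp-8 and lbp-9 were lower. For lbp-1, lbp-2, lbp-4 and lbp-6 the libraries overlapped. Among all tested genes, 25.9% did not overlap and were higher and 28.7% did not overlap and were lower, so 3 and 2 of 9 members are close to what the whole table shows. The same 5 genes had an unadjusted limma p under 0.05, 3 of them higher and 2 lower, against 22.9% and 26.9% of all tested genes. At an adjusted p under 0.01, lbp-7 was higher and lbp-9 was lower, against 9.83% and 9.76% of all tested genes. A gene was called when its log2 fold change was also beyond 1, and by this rule 0 of 9 members were called in either direction, against 6.96% called higher and 5.59% called lower over all tested genes. The family had a median log2 fold change of -0.11, with 4 of 9 members above 0, and that of all tested genes was -0.03. The exact two-sided permutation test of 3 libraries against 3 cannot go below 0.1, and it gave 0.1 for each of the 5 members without overlap.

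**Figure D2:**
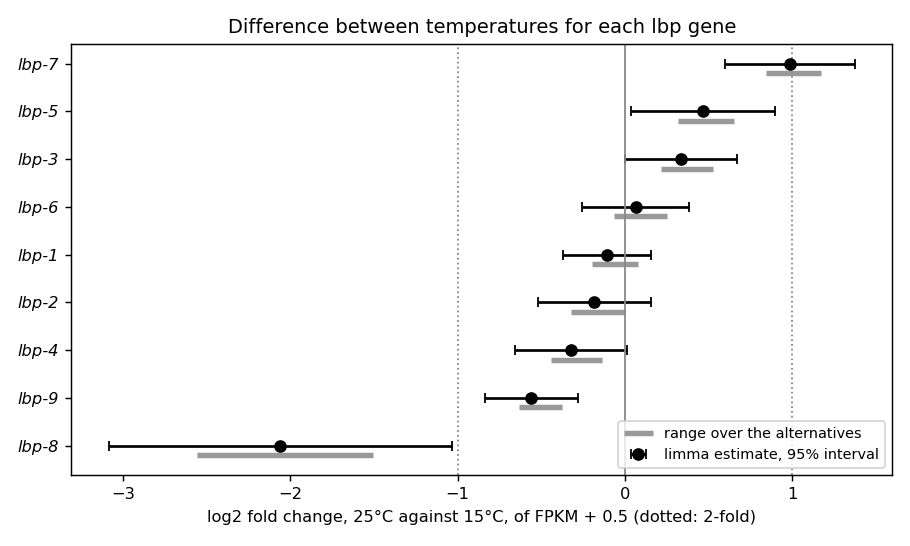
Log2 fold change at 25°C against 15°C of FPKM + 0.5 for each lbp gene, with its 95% limma interval (black) and the range of the estimate over the processing alternatives (grey). The intervals of lbp-8 and lbp-9 lie below 0, those of lbp-3, lbp-5 and lbp-7 above 0, and the dotted lines mark a 2-fold difference.

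Of the members higher at 25°C, lbp-7 differed most. It had 364.3, 424.2 and 289.6 FPKM in the 15°C libraries and 812.7, 669.7 and 641.8 FPKM in the 25°C libraries. The lowest library at 25°C was well above the highest at 15°C. The mean went from 359.3 FPKM ± 67.4 to 708.1 ± 91.7 (SD, n = 3), a ratio of 1.97. Its log2 fold change was 0.99 (SE 0.17, 95% interval 0.60 to 1.38) with an adjusted p of 0.0044, so it passed the p threshold and fell just short of the 2-fold one. It was called in 4 of the 17 alternatives, with estimates of 1.02 under median-ratio scaling, 1.17 under equal library sums and under rescaling to TPM, and 1.12 without 15°C replicate 2. Its adjusted p exceeded 0.01 without 15°C replicate 1 and without each of the 25°C libraries, at 0.0106 to 0.018.

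lbp-8, the gene of the lysosomal chaperone, had the largest fold difference of the family. It had 7.13, 7.21 and 10.7 FPKM in the 15°C libraries and 3.65, 0.739 and 1.26 FPKM in the 25°C libraries. All 25°C values were below all 15°C values, although 25°C replicate 1 stood nearer to the 15°C libraries than the other two did. The mean went from 8.33 FPKM ± 2.02 to 1.88 ± 1.55 (SD, n = 3), which is 4.42-fold lower. The coefficient of variation was 82.5% at 25°C, the highest of any member at either temperature. The log2 fold change was -2.06 (SE 0.44, 95% interval -3.08 to -1.03) with an adjusted p of 0.010003, just over the threshold of 0.01. Without 25°C replicate 1 the estimate was -2.56 with an adjusted p of 0.00259, and with a pseudocount of 1 it was -1.80 with an adjusted p of 0.00842, so both settings called the gene. At these low levels the pseudocount weighs on the estimate, which was -2.35 with a pseudocount of 0.1 and -1.51 after rescaling to TPM.

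None of the tested genes next to lbp-7 and lbp-8 was called, against 6.96% called higher and 5.59% called lower over all tested genes. T22G5.3, just downstream of lbp-7, had means of 8.17 and 10.4 FPKM at 15°C and 25°C (log2 fold change 0.34, adjusted p = 0.151). spp-12 lies 445 bases before lbp-8 and belongs to the saposin-like family. It had 6.31, 3.32 and 0 FPKM in the colder libraries and 0, 0 and 0.897 FPKM in the warmer ones (log2 fold change -1.74, adjusted p = 0.183). srsx-19 was below the filter. On the outer sides, T22G5.1 had means of 3.6 and 1.45 FPKM (log2 fold change -1.19, adjusted p = 0.0732). At such low levels the lack of a call says little about spp-12 and T22G5.1. sptl-3 encodes a subunit of serine palmitoyltransferase, the first enzyme of sphingolipid synthesis. It had 62.9 to 91.7 FPKM over the 6 libraries, well above lbp-8, and a log2 fold change of -0.33 with an adjusted p of 0.1.

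lbp-9 was an abundant member with a smaller difference in the same direction as lbp-8. It had 2323, 2875 and 2559 FPKM in the 15°C libraries and 1598, 1856 and 1799 FPKM in the 25°C libraries, so the groups did not overlap. The mean went from 2586 FPKM ± 276.6 to 1751 ± 135.7 (SD, n = 3), or 1.48-fold lower, and its mean fell by 835 FPKM between the groups, which exceeded that of any other member in absolute level. The log2 fold change was -0.56 (SE 0.12, 95% interval -0.84 to -0.28) with an adjusted p of 0.00989. This p lay next to the threshold and was under 0.01 in 3 of the 15 alternatives other than treat and the change of the p threshold, with a range of 0.00897 to 0.0387. Under equal library sums and under rescaling to TPM the estimate shrank to -0.37, with an adjusted p of 0.0363. Among its neighbours, nhr-86, a nuclear receptor gene, had means of 43.2 and 35.9 FPKM with an adjusted p of 0.109, and F36F12.3 was below the filter.

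For the pair on chromosome I, neither member passed the test. lbp-5, the member tied to fat storage, had 326.0, 370.3 and 253.2 FPKM at 15°C and 530.3, 387.1 and 393.7 FPKM at 25°C. The groups did not overlap, but 15°C replicate 2 came close to the lowest 25°C library. The log2 fold change was 0.47 (SE 0.18, 95% interval 0.04 to 0.90) with an adjusted p of 0.0802, which did not pass. lbp-6 had 2929, 3183 and 2340 FPKM at 15°C and 3131, 2855 and 2785 FPKM at 25°C. Its groups overlapped, and the log2 fold change was 0.06 (95% interval -0.26 to 0.38, adjusted p = 0.735), which turned to -0.06 without 15°C replicate 3. The gene between them, ant-1.2, was below the filter at means of 0.37 and 0.389 FPKM.

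In the cluster on chromosome X, which holds the predicted secreted members, lbp-3 had the clearest difference. It had 250.7, 262.3 and 199.5 FPKM at 15°C and 335.4, 269.7 and 293.0 FPKM at 25°C. The groups did not overlap, but the lowest 25°C library lay just above the highest 15°C library. The log2 fold change was 0.34 (SE 0.14, 95% interval 0.0023 to 0.67) with an adjusted p of 0.0987, which did not pass. lbp-1, its neighbour, had 208.0, 213.1 and 174.4 FPKM at 15°C and 186.2, 179.8 and 185.1 FPKM at 25°C. These values overlapped, with a log2 fold change of -0.11 (95% interval -0.37 to 0.16, adjusted p = 0.476). lbp-2, the most abundant member, had 3755, 4154 and 2949 FPKM at 15°C and 3369, 3031 and 3078 FPKM at 25°C. It too overlapped, with a log2 fold change of -0.18 (95% interval -0.52 to 0.15, adjusted p = 0.34). The estimates for lbp-1 and lbp-2 turned to 0.0795 and 0.0031 under equal library sums, so no direction can be given for either. tba-9, a tubulin gene before lbp-3, had means of 4.8 and 4.56 FPKM, and fbxb-71, behind lbp-2, was not analysed here.

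lbp-4 had 211.6, 188.9 and 155.9 FPKM at 15°C and 162.2, 134.4 and 146.3 FPKM at 25°C. A single 25°C library, replicate 1, lay within the 15°C range. The log2 fold change was -0.32 (SE 0.14, 95% interval -0.66 to 0.01) with an adjusted p of 0.112, which did not pass. Of its distant neighbours, mig-6 had a log2 fold change of -0.11 (adjusted p = 0.782). ZK742.6 was listed at 0 in 4 of 6 libraries and at 630 and 154 FPKM in the others.

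The make-up of the family in a library was also compared, since a share within a library does not depend on how libraries are scaled. The summed FPKM of the 9 genes was 10370, 11680 and 8932 at 15°C and 10130, 9383 and 9323 at 25°C, with overlap. The share of lbp-7 was 3.51, 3.63 and 3.24% at 15°C and 8.03, 7.14 and 6.88% at 25°C. That of lbp-9 was 22.4, 24.6 and 28.7% at 15°C and 15.8, 19.8 and 19.3% at 25°C. Neither pair of groups overlapped. The 3 abundant members together held 87.4% ± 0.551 (SD, n = 3) at 15°C and 81.6% ± 1.37 at 25°C. The share of lbp-6 was 26.2 to 28.2% at 15°C and 29.9 to 30.9% at 25°C, although its level overlapped. These shares were not tested, and a rise in one member's share lowers those of the others.

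**Figure D3:**
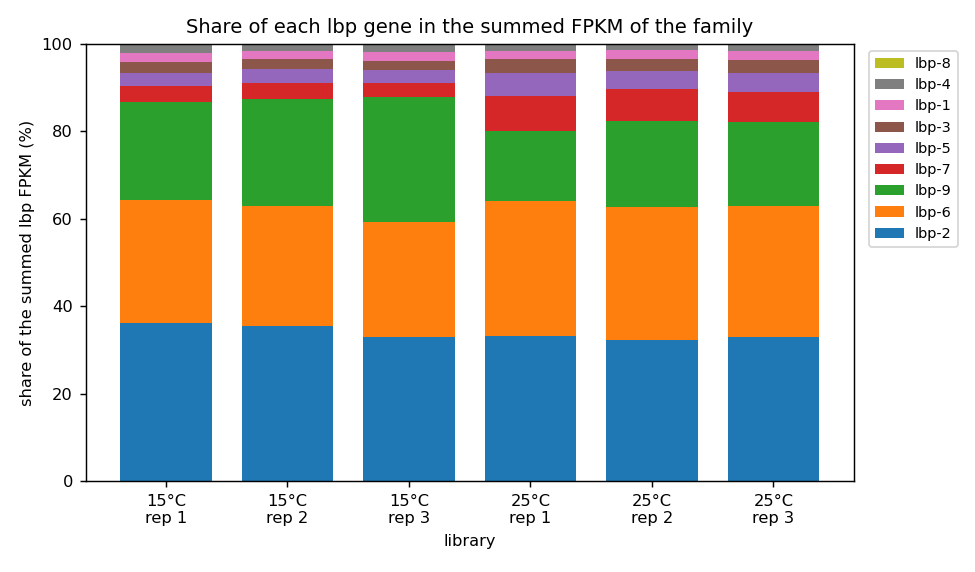
Share of each lbp gene in the summed FPKM of the family (percent, stacked) in each of the 6 libraries. The lbp-7 segment spans 3.24 to 3.63% at 15°C and 6.88 to 8.03% at 25°C, and the lbp-9 segment 22.4 to 28.7% and 15.8 to 19.8%.

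Genes of a cluster were compared with each other in the same library, as log2 ratios of their FPKM, for 5 pairs. The ratio of lbp-7 to lbp-8 was 5.68, 5.88 and 4.76 at 15°C and 7.80, 9.82 and 8.99 at 25°C, a difference of 3.43. The ratio of lbp-5 to lbp-6 was -3.17, -3.10 and -3.21 at 15°C and -2.56, -2.88 and -2.82 at 25°C, a difference of 0.40. For neither ratio did the groups overlap. On chromosome X, the ratio of lbp-3 to lbp-1 differed by 0.44 and that of lbp-3 to lbp-2 by 0.52, each without overlap, while that of lbp-1 to lbp-2 differed by 0.08 and overlapped. The exact two-sided permutation p was 0.1, the smallest it can give, for the first 4 pairs and 0.3 for the last, or 0.125 and 0.3 after adjustment over the 5 pairs, so none passed.

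**Figure D4:**
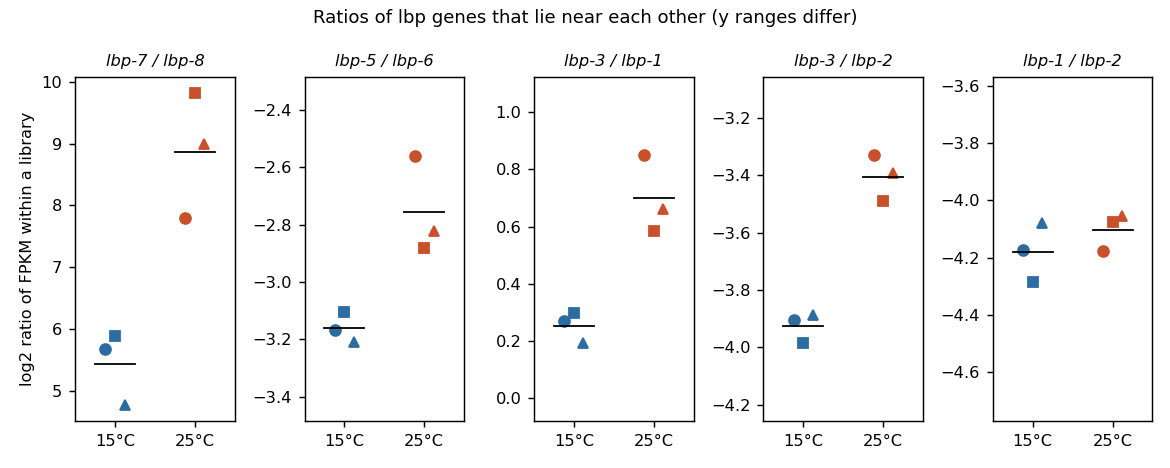
Log2 ratio of FPKM of one lbp gene over another in the same library, for 5 pairs that lie near each other, at 15°C (blue) and 25°C (orange), with marker shape for the replicate number, black lines for means and y ranges that differ between panels. The groups are apart in the first 4 panels and overlap for lbp-1 over lbp-2.

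Single libraries moved many members together. Of the 15°C libraries, replicate 3 was the lowest for 7 of 9 members and replicate 2 the highest for 7. Of the 25°C libraries, replicate 1 was the highest for 8 of 9 members and replicate 2 the lowest for 6. The members thus shared deviations within a library and are not independent of each other. The summed FPKM of all rows was also lowest in replicate 3 (2865856) and highest in replicate 2 (3313082) at 15°C. At 25°C it was highest in replicate 1 (2776526), but lowest in replicate 3 (2663992). The same counts over all tested genes were not made, so the pattern is not shown to be particular to the family.

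The expression pattern of lbp-8 was compared with that of the other 12995 tested genes, by the root mean square difference of centred log2 values over the 6 libraries. This is a description, with no test. The nearest gene was his-64, which encodes a histone, at 0.297, with 14.9, 23.4 and 29.3 FPKM at 15°C and 6.46, 1.93 and 3.14 FPKM at 25°C. Histone genes have near-identical copies, so the level of this one is uncertain. T26E4.2 at 0.341, F58F12.12 at 0.364, F33H12.7 at 0.401 and T26E3.6 at 0.431 followed. T26E4.2 and F58F12.12 lay near the floor, at 0.603 FPKM or less in the 25°C libraries. The other lbp genes were far from lbp-8, with lbp-9 nearest at rank 2364 and lbp-7 farthest at rank 11516. This measure depends on the size of a change, so genes with small changes lie far from lbp-8 whatever their direction.

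Other carriers of lipids were set beside the lbp genes, by lists chosen with earlier results of these data known. Of the secreted fatty acid- and retinol-binding far genes, 7 of 8 were tested and 0 were called by limma (at an unadjusted p under 0.05, 1 was higher and 1 lower), with a median log2 fold change of -0.13 that turned to 0.06 under equal library sums. The largest difference was that of far-7, at means of 36.9 FPKM ± 7.02 and 19.3 ± 0.674 (log2 fold change -0.90, adjusted p = 0.00523), which was called at -1.04 without 15°C replicate 3. Of the acyl-CoA-binding genes, 6 of 8 were tested and 0 were called (2 higher and 1 lower at that unadjusted p), with a median of 0.30. The largest difference there was that of acbp-4, at 42.6 FPKM ± 4.81 and 63.9 ± 12.2 (log2 fold change 0.57, adjusted p = 0.0292). Of the lipocalin-related lpr genes, 5 of 7 were tested and lpr-7 was called higher, at 3.81 FPKM ± 1.23 and 15.2 ± 1.62 (log2 fold change 1.91, adjusted p = 0.00163), with a list median of -0.15. With a filter at 5 FPKM, lpr-7 was the 1 gene of that list left, so that the median was its own value. The shares over all tested genes were 6.96% called higher and 5.59% called lower. At an unadjusted limma p under 0.05 the shares were 22.9% higher and 26.9% lower.

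Among the lysosomal lipases encoded by the lipl genes, LIPL-4 acts before LBP-8 in the pathway described above. Of the lipl genes, 6 of 8 were tested, 2 were called higher and 0 lower, with a median log2 fold change of -0.15 that was 0.04 with no filter on low values. With a filter at 5 FPKM, 3 genes were left (lipl-2, lipl-5 and lipl-7) and the median was 1.097. Over all tested genes, 6.96% were called higher and 5.59% lower. lipl-2 rose from 2.65 FPKM ± 0.202 to 16.5 ± 4.19 (log2 fold change 2.41, adjusted p = 0.000371). lipl-5 rose from 288 FPKM ± 29.9 to 614 ± 13.8 (log2 fold change 1.097, adjusted p = 0.000612). lipl-4, named here for its known tie to LBP-8 with its values already seen, had 1.33 FPKM ± 0.211 and 1.26 ± 0.52 with overlap (log2 fold change -0.11, adjusted p = 0.801), which turned to 0.0262 under equal library sums and to 0.17 without 25°C replicate 1. Thus the lipases with called differences were others than the one known to work with LBP-8. As lipl-4 lay just above the filter of 1 FPKM, the lack of a call says little about it.

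The receptors that respond to the lipid and their known targets were listed separately. Of NHR-49 and its partners, 4 of 6 were tested and 0 were called by limma, with a median log2 fold change of -0.04. At an unadjusted limma p under 0.05, 1 was higher, against 22.9% of all tested genes. nhr-49 itself was not analysed here. The largest difference was that of nlp-11, at 24.3 FPKM ± 2.9 and 35.9 ± 3.36 (log2 fold change 0.56, adjusted p = 0.0178), which did not pass. This list member is the neuropeptide gene of the LBP-3 pathway and not a receptor. nhr-80, named for its role with its values already seen, had means of 9.4 and 8.53 FPKM. Of the known NHR-49 targets, 7 of 8 were tested, with 2 called higher, 1 called lower and a median of 0.49, against the same shares of 6.96% and 5.59% over all tested genes. fat-7, a stearoyl-CoA desaturase, fell from 182 FPKM ± 33.5 to 46.1 ± 11.6 (log2 fold change -1.98, adjusted p = 0.000729). acs-2, an acyl-CoA synthetase of fatty acid breakdown, rose from 7.07 FPKM ± 2.39 to 25.6 ± 4.51 (log2 fold change 1.82, adjusted p = 0.00244). ech-1.1, an enzyme of the same breakdown, rose from 3.25 FPKM ± 0.68 to 7.56 ± 0.786 (log2 fold change 1.12, adjusted p = 0.00496). Leaving out 15°C replicate 2 or 25°C replicate 3 moved the adjusted p of acs-2 to 0.0107 and 0.0113, and each library other than 15°C replicate 3 moved ech-1.1 out of the call, at an adjusted p of 0.0126 to 0.0218.

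Among genes of lipid droplets and fat storage, 6 of 7 were tested. Of these, 1 was called higher and 1 lower, against 6.96% and 5.59% of all tested genes. The median log2 fold change was -0.14 and turned to 0.04 under equal library sums. plin-1, the perilipin that coats lipid droplets, fell from 118 FPKM ± 10.8 to 43.9 ± 6.52 (log2 fold change -1.42, adjusted p = 0.00061). dhs-3, a dehydrogenase of the lipid droplet, rose from 155 FPKM ± 14.6 to 377 ± 69.5 (log2 fold change 1.27, adjusted p = 0.00126).

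**Figure D5:**
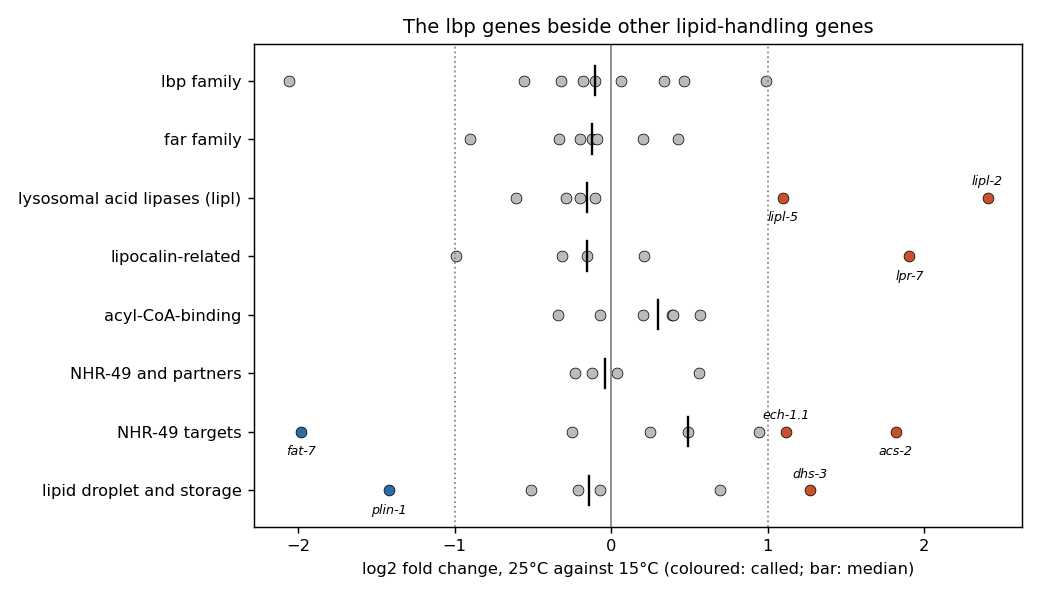
Log2 fold change at 25°C against 15°C for the tested genes of the lbp family and of 7 other lists of lipid-handling genes, 1 point per gene, orange for called higher, blue for called lower and grey for not called, with a black bar for the list median and dotted lines at a 2-fold difference. The lbp row holds no called gene and spans -2.06 to 0.99, and called genes appear in the lipl, lpr, NHR-49 target and lipid droplet rows.

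Markers of tissues were measured beside the lbp genes, and their part in the differences was not tested. The summed FPKM of 7 of 8 intestinal markers was 10500 to 14200 at 15°C and 9550 to 11600 at 25°C, with overlap. Of these, 1 was called higher, against 6.96% of all tested genes. This was elt-7, an intestinal GATA factor gene, with means of 18.2 and 39.6 FPKM (log2 fold change 1.11, adjusted p = 0.00159). It was not called without 15°C replicate 1, at 0.99, or without 25°C replicate 3, at an adjusted p of 0.0103. elt-2, the main intestinal GATA factor gene, had means of 20.2 and 19.3 FPKM (adjusted p = 0.808). For body wall muscle the sums of 5 of 6 markers were 1960 to 2300 at 15°C and 1530 to 1950 at 25°C, lower at 25°C without overlap. For neurons those of 6 of 6 were 141 to 156 and 152 to 169, with overlap, and 0 markers were called in either list. Most of the muscle sum came from unc-27 and mup-2, with means of 1370 and 589 FPKM at 15°C. The muscle list had a median log2 fold change of -0.23, which was -0.04 under equal library sums, and hlh-1 was above 0 at 0.25. For hypodermis and seam, the sums of the 6 markers were 1530 to 1760 at 15°C and 755 to 1350 at 25°C without overlap, with 0 called of 5 tested and a median log2 fold change of -0.70. Nearly all of this sum was col-19, with means of 1590 and 1010 FPKM at 15°C and 25°C. The sum therefore describes col-19 more than the hypodermis as a whole. No other hypodermal marker exceeded a mean of 25.3 FPKM, and elt-3 overlapped at a log2 fold change of -0.15 (adjusted p = 0.64). At an unadjusted limma p under 0.05, 2 intestinal and 1 neuronal marker were higher, and 1 muscle and 4 hypodermal markers were lower. The shares over all tested genes at this p were 22.9% higher and 26.9% lower.

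The yolk markers were lower at 25°C, and the germline and sperm markers were mixed. For 5 of 6 yolk genes, which the intestine of the adult makes for the oocytes, the sums were 2760 to 4630 at 15°C and 1570 to 1910 at 25°C. The genes vit-1, vit-4 and vit-5 were called lower, against 5.59% of all tested genes, and the list median was -1.30. vit-1 was not called when 15°C replicate 1 or either of replicates 1 and 3 at 25°C was left out, at an adjusted p of 0.017 to 0.0199, or under equal library sums. For germline and sperm, the sums of 6 of 6 markers were 2090 to 2490 at 15°C and 2100 to 2270 at 25°C, with overlap. Here 2 markers were called lower, against 5.59% of all tested genes, and 3 of 6 were above 0. The called genes were pgl-1, a germ granule gene, and glp-1, the receptor of germline stem cells, at log2 fold changes of -1.15 and -1.44. Neither was called when any library other than 25°C replicate 2 was left out, or under equal library sums. Of the sperm genes, none of which was called, spe-11 had a log2 fold change of 0.52 (adjusted p = 0.0416), spe-9 one of 0.12 and msp-31 one of 0.06. The msp and vit genes have near-identical copies, so the levels of single genes among them are uncertain. The lbp genes higher at 25°C and those lower at 25°C were thus measured beside yolk, hypodermal and muscle markers with lower sums at 25°C and intestinal markers whose sums overlapped.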

How the data were processed

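Libraries were made from whole worms with a stranded mRNA kit, and no source used here says whether strand was used in counting. The authors aligned the reads with TopHat2 2.0.6 to WBcel235, used the Cufflinks tools, and deposited 1 FPKM value per gene and library. FPKM keep no depth, so no counting interval was possible. By the study's methods, worms hatched and grew at each temperature after their parents had been placed there, while the labels speak of synchronized L1 larvae.

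Rows with a mean FPKM of 1 or more (12996) were compared on the log2(FPKM + 0.5) scale by limma 3.58.1 in R 4.3.3, with a trend on intensity, without covariates. Fold changes on this scale understate those of low genes. Tests were two-sided, and p-values were adjusted by Benjamini-Hochberg over all tested genes. A call required a log2 fold change beyond 1 together with an adjusted p under 0.01. Fits were tested on simulated data. Python 3.11.15 was used for tables and plots. Gene positions came from Ensembl release 115, matched by symbol. Sequences were not used here, so the planned promoter motif search was not run.

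There were 17 alternatives. They were pseudocounts of 0.1 or 1, a filter at 5 FPKM or none, scaling by median ratios, to equal library sums or to TPM, an adjusted p under 0.05, treat, a fit without the trend, a replicate block, and each library left out. The family was picked for description, and its lists for comparison were written, with earlier results of these data known, although membership follows the gene name alone. Named from each list were its called genes (at most 4) or, with none, the gene with the largest change. Also named were the nearest annotated neighbours and the 5 genes most like lbp-8.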

Additional observations from a re-analysis of the deposited data

How the results depend on the processing

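The log2 fold changes of lbp-3, lbp-4, lbp-5, lbp-7, lbp-8 and lbp-9 kept their direction under all 17 alternatives. That of lbp-1 turned to 0.0795 under equal library sums and 0.0791 under TPM, and that of lbp-2 to 0.0031 under both, settings that move the median of all tested genes from -0.03 to 0.15 and 0.13. With single libraries left out, lbp-6 ranged from -0.065 to 0.16, lbp-7 from 0.84 to 1.12 and lbp-8 from -2.56 to -1.68. lbp-7 was called, as the 1 member called higher in place of 0, at 1.02 under median-ratio scaling and 1.17 under equal sums and TPM. lbp-8 was called, as the 1 member called lower in place of 0, at -1.80 with a pseudocount of 1 and at -2.06 with an adjusted p under 0.05. With libraries left out, each count ranged from 0 to 1. lipl-4 turned to 0.0262 under equal sums and 0.0279 under TPM and ranged from -0.25 to 0.17 with libraries left out. nhr-80 turned to 0.0545 under equal sums and 0.0475 under TPM. The causes were not tested.

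Over all tested genes, the 904 called higher became 137 with treat, which tests against a 2-fold change, and 569 to 794 with libraries left out. The 726 called lower became 422 under equal sums, 395 under TPM, 26 with treat and 287 to 824 with libraries left out. The share of higher among all calls was 55.5%, against 74.2% under equal sums, 73.5% under TPM and 84.0% with treat. No label says that a replicate number marks a shared batch. Deviations of same-numbered libraries correlated at -0.03, -0.10 and -0.05, and those of differently numbered libraries at -0.116 to 0.162. With so few libraries these values cannot exclude a shared batch. With the replicate block, 597 genes were called higher and 406 lower, and no call of an lbp gene changed. Among named list genes, ech-1.1, vit-1, pgl-1 and glp-1 were not called with the block, and with treat lipl-2 was the only one called.

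Precision rests on 3 libraries a group and an unknown depth. The lower sums of yolk, hypodermal and muscle markers at 25°C were not separated from the temperature. For muscle, 0 markers were called, and the median log2 fold change went from -0.23 to -0.04 under equal library sums.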
